A study of Homo sapiens with 6 samples.

Results

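Transcripts of proteasome subunits and regulators were examined in total RNA of JJN3, a long-established line of human multiple myeloma cells, hybridised to 6 arrays of the Affymetrix U133 Plus 2.0 type. The set held every gene whose symbol is PSMA, PSMB, PSMC, PSMD, PSME, PSMF or PSMG with a number and that has a probe set annotated to it alone. There were 42 such genes among 19775 named genes, measured by 81 probe sets, and each gene was read through its brightest probe set over the arrays compared. That was the same probe set with 6 and with 5 arrays for all of them except PSMA1. All 42 lay above the filter on dim probe sets, which left 12663 genes to test. A further 5 probe sets annotated to several genes were left out, and PSMA6, PSMB11, PSMC5, PSMD7, PSMD13 and PSME2 were not analysed here. The cells of 3 arrays had received, by virus, a short hairpin RNA (shRNA) aimed at CKS1B, and those of the other 3 a scrambled shRNA. CKS1B binds cyclin-dependent kinases and helps the SKP2 ubiquitin ligase find its substrates. All cells therefore carried a virus and an shRNA, and no untransduced cells enter the comparison. Arrays are called A, B and C within a group, after the letter in their titles. Separate cultures are not mentioned in the labels, and p-values then cover only the spread from array to array, possibly a technical one.

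The proteasome is the large protease that degrades proteins tagged with ubiquitin. Its barrel-shaped core is built of outer rings of alpha subunits and inner rings of beta subunits, and PSMB5, PSMB6 and PSMB7 carry the active sites. In immune cells PSMB8, PSMB9 and PSMB10 can take their places and form the immunoproteasome, which favours peptides for antigen presentation. A regulatory particle caps the core: ATPases of the PSMC family and some PSMD subunits form its base, which unfolds substrates, and other PSMD subunits form its lid, which removes ubiquitin. Dedicated chaperones build the core and the base. Plasma cells make large amounts of antibody, and proteasome inhibitors are standard drugs against their tumour, myeloma.

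Proteasome genes are known to be induced together by NFE2L1, a transcription factor that pairs with small MAF proteins on the antioxidant response element. The core of that element was searched as TGACNNNGC on both strands, from 250 bases before to 50 bases after each gene's start in the RefSeq promoter table (GRCh38.p14). Of the 42 genes, 36 had a promoter in the table, and 13 of these (36.1%) held the motif, against 4384 of 27305 genes (16.1%) in the whole table. By window the shares were 30.2% and 13.3%. A match is a description of the sequence and does not show binding. Below are matches upstream of 4 genes, in the gene's own direction 5′ to 3′, chosen because they come from the alpha ring, the beta ring and the lid. Capitals mark the motif.
PSMA4, chr15:78540650-78540678, plus strand: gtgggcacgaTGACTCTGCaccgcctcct
PSMB3, chr17:38752627-38752655, plus strand: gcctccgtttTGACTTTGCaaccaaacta
PSMD3, chr17:39980760-39980788, plus strand: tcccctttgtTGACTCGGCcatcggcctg
PSMD12, chr17:67366724-67366752, minus strand: agacaaaaccTGACGCTGCaggctggagt

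Levels are MAS5 intensity values on a linear scale, each listed in the order of arrays A, B and C. A difference is the CKS1B shRNA mean less the scrambled mean of log2(value + 16), a scale that understates changes at low values. CKS1B read 8266, 8441 and 7294 on the scrambled arrays and 481, 269 and 828 on the CKS1B shRNA arrays (log2 -4.02, limma adjusted p = 0.246, or 0.00135 once CKS1B shRNA array B was left out). That array stood apart: its correlation with the others was 0.577 to 0.61, against 0.879 to 0.958 among the other 5. Its ratio of the 3' to the 5' actin control was 12.36, and its log2 values were compressed (SD 1.61, where scrambled array C had 1.83 and the remaining arrays 2.2 to 2.24). The next highest actin ratio, 2.93, belonged to CKS1B shRNA array C, which is kept in the set of 5. CKS1B shRNA array A had 1.11, and the scrambled arrays 1.05, 1.15 and 1.66. For the GAPDH control the ratio was 4.7 on CKS1B shRNA array B and 1.18 on array C, close to the 1.17 of scrambled array C. The title of scrambled array B carries the word 'poly', which the labels do not explain, so whether that array was handled differently is not known. All 8 plasma cell and myeloma markers lay above the filter, with summed values of 39539 to 49035 on the scrambled arrays and 55627, 20332 and 51786 on the CKS1B shRNA arrays. Markers of other cell types summed to 1596 to 3020 and to 1382, 6211 and 2028, with none at 0 among the 11 measured. Of these 11, 7 also lay above the filter, as did 12663 of 19775 named genes, so passing it does not tell cell types apart. The part of these differences in the results was not tested, so the main counts and medians are given with 6 arrays and with 5, CKS1B shRNA array B being left out. Most single genes are given with either set or both.

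Proteasome transcripts lay near the top of the scale on 5 arrays and lower on CKS1B shRNA array B. The median of the 42 genes stood at the 94.1, 93.2 and 94.1 percentile of all tested genes on the scrambled arrays, and at 94.5, 79.6 and 94.2 on the CKS1B shRNA arrays. Set against the scrambled mean, the median gene lay 0.31 log2 units higher on CKS1B shRNA array A, 1.97 lower (-1.97) on array B and 0.23 higher on array C. For comparison, each scrambled array taken against the mean of the other scrambled ones gave 0.20, 0.02 and -0.20. On array B, 38 of the 42 genes read below all scrambled arrays and 2, PSMA1 and PSMB4, above them, where all tested genes gave 41.9% below and 39.4% above. For PSMA1 this depended on the probe set. The one used with 5 arrays read 10197 on array B, within the scrambled range of 9580 to 11223, and the remaining one 20319, above 7584 to 8305. On array A 31 read above all scrambled arrays and 3 below (24.9% and 29.4% of all genes), and on array C 21 above and 11 below (30.3% and 30.9%). Other bright genes were also lower on array B. The 8 plasma cell and myeloma markers, at median percentiles of 93.8 to 95.7 on the scrambled arrays, had a median deviation of -1.40 there. The 11 partners described below, at 88.8 to 91.8, had -2.34. Whether the drop on array B was particular to proteasome genes was not tested. In bulk RNA, a change in the cells present and a change in RNA per cell cannot be told apart.

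**Figure D1:**
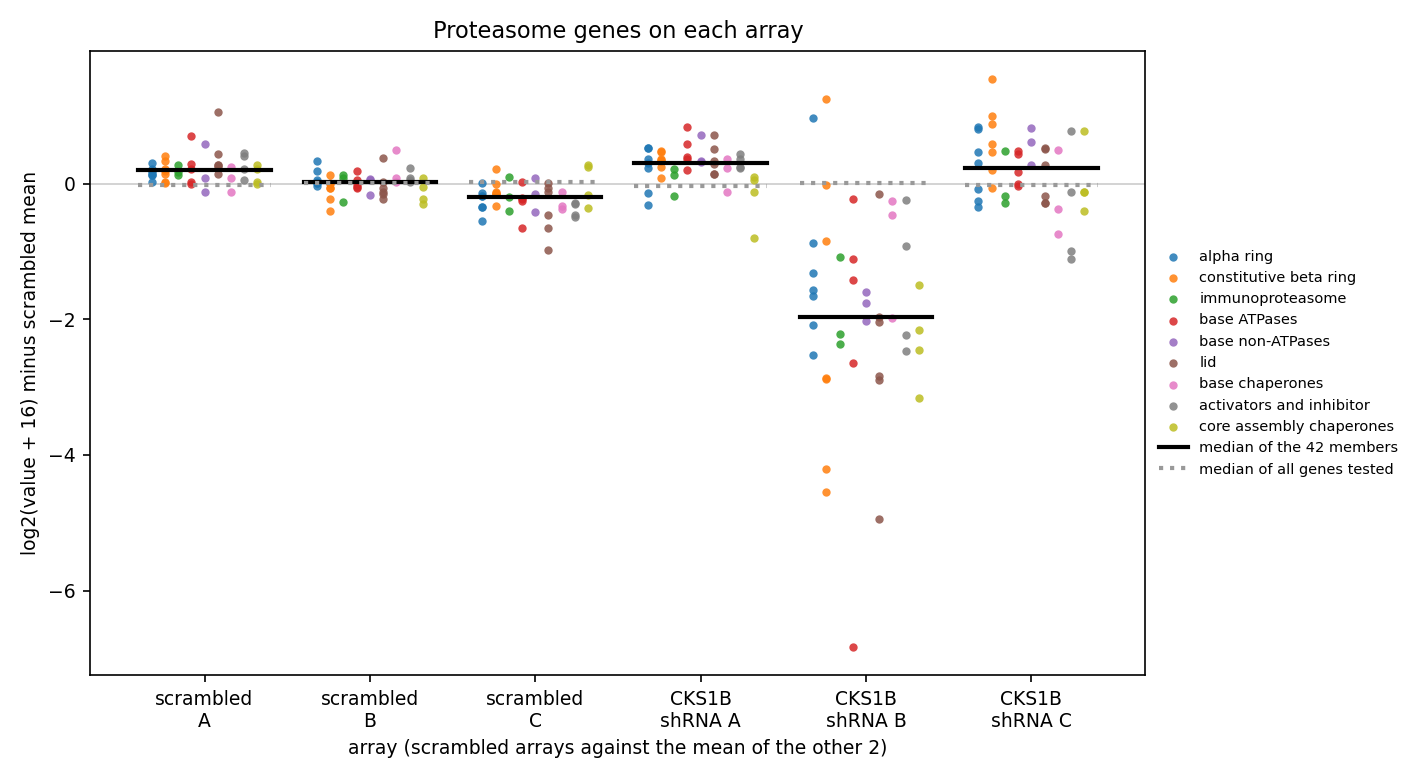
Log2 deviation of each of the 42 proteasome genes on each array from the scrambled shRNA mean, by structural class. On CKS1B shRNA array B 38 genes read below all scrambled arrays, and on array A 31 read above them.

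No proteasome gene reached the adjusted threshold of 0.05 in limma, with 6 arrays (adjusted p 0.933 to 0.996) or with 5 (0.453 to 0.997). Over all genes the share called was 0% with 6 arrays and 0.0476% with 5. With 6 arrays 5 genes read higher and 37 lower, with a median log2 difference of -0.49 and a range from -1.94 for PSMC3 to 0.86 for PSMB4. The median of all genes was -0.08, and 44.3% of them read higher. With 5 arrays the balance turned: 29 read higher and 13 lower, with a median of 0.22 and a range from -0.44 for PSMD5 to 0.89 for PSMB3, against a median of -0.03 and 46.9% higher over all genes. With PSMA1 kept on its 6-array probe set the counts were 28 and 14 and the median 0.16. None of the 42 had an unadjusted p under 0.05 with 6 arrays (2.95% of all genes). With 5 arrays 10 did, all higher (9.65% of all genes in either direction, and 5.03% higher): PSMA5, PSMA7, PSMB1, PSMB3, PSMB4, PSMB6, PSMC4, PSMD1, PSMD4 and PSMD11.

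The groups did not overlap in 2 of the 42 genes with 6 arrays: PSMB4 was higher (4.94% of all genes) and PSMB9 lower (6.41%). With 5 arrays 18 genes were higher without overlap (13.7% of all genes) and PSMB9 alone was lower (14.6%), or 17 higher with PSMA1 kept on its 6-array probe set. After quantile normalization of the 5 arrays, which forces them to the same distribution, the median was 0.00, 21 genes of 42 read higher, and 9 were higher without overlap (12.7% of all genes) and 6 lower (14.5% of all genes). The excess of genes reading higher on 5 arrays was present on the deposited scale and not after that scaling. By overlap, more genes were still higher than lower, 9 against 6. The 6 lower genes were PSMA2, PSMB7, PSMB9, PSMD5, PSMG1 and PSMG2, which were also lower without overlap after quantile normalization of the 6 arrays. Leaving out CKS1B shRNA array A in place of array B gave 11 genes without overlap and a median of -0.86, leaving out array C gave 5 and -0.89, and leaving out scrambled array C gave 4 and -0.52.

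**Figure D2:**
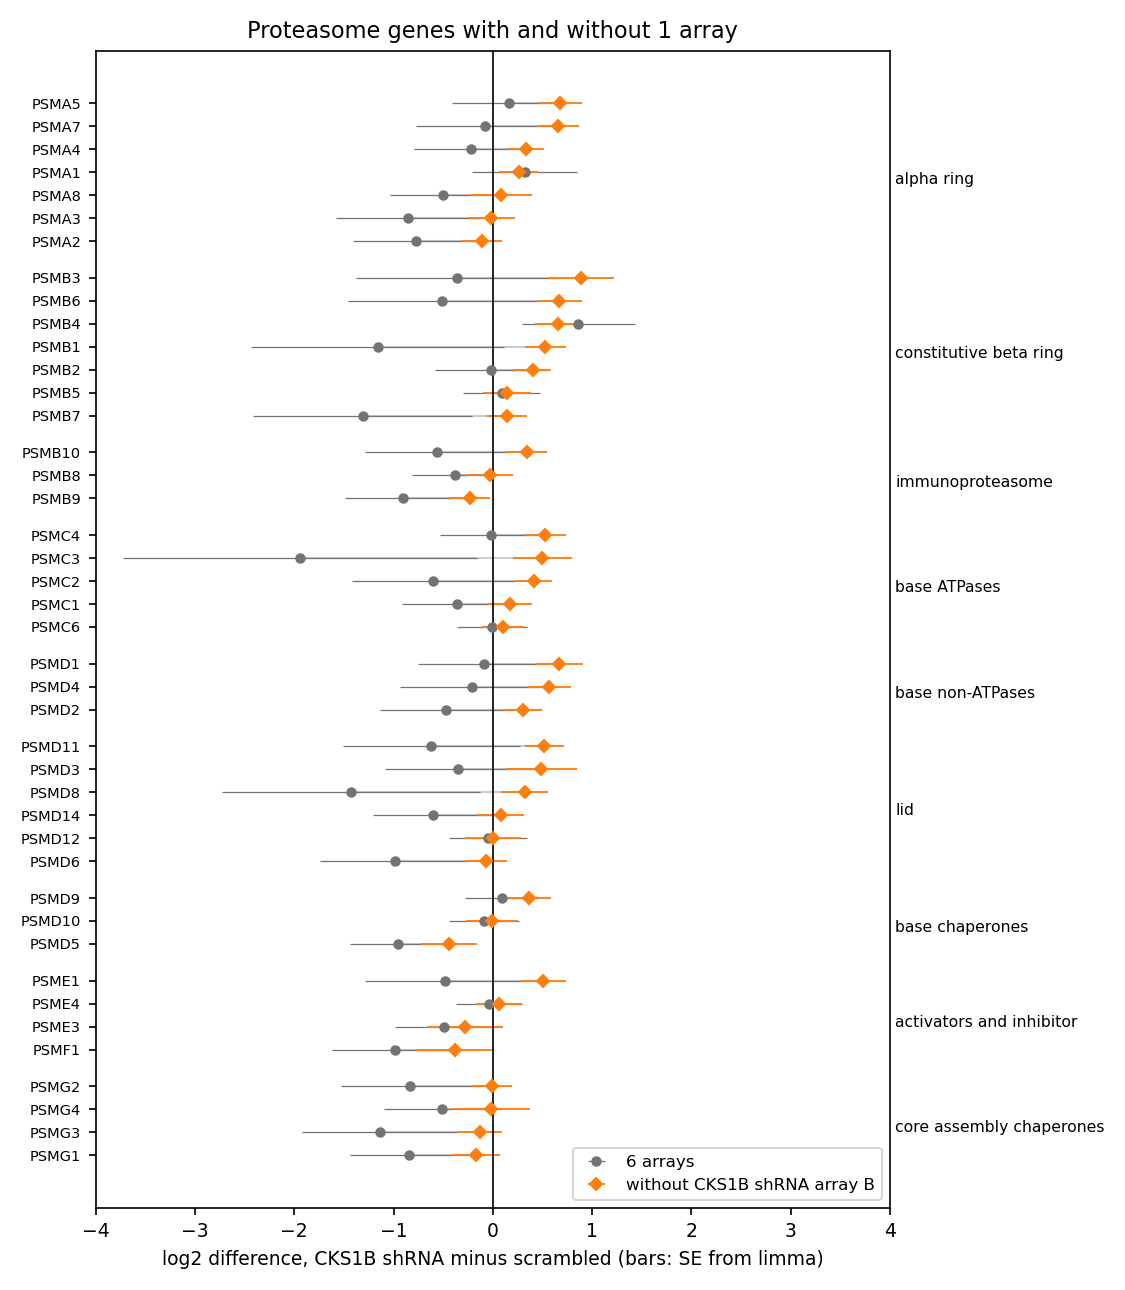
Log2 difference of each proteasome gene with all 6 arrays and with 5, CKS1B shRNA array B being left out. The median moves from -0.49 to 0.22, and 37 genes read lower with 6 arrays against 13 with 5.

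The constitutive beta ring, which holds the active sites, read higher in 7 of 7 genes with 5 arrays (median 0.53) and in 2 of 7 with 6 (median -0.36). PSMB4, a subunit without an active site, read 15148, 14204 and 13323 on the scrambled arrays and 17841, 33652 and 28322 on the CKS1B shRNA arrays. It was above every scrambled array on each CKS1B shRNA array, with a log2 difference of 0.86 (SE 0.57, limma adjusted p = 0.933) and 0.66 with 5 arrays (adjusted p = 0.486). PSMB4, like PSMD4, lies near CKS1B on the long arm of chromosome 1. After quantile normalization its groups overlapped, with differences of 0.34 with 6 arrays and 0.08 with 5. Of its other probe sets, 1 also read above all scrambled arrays on array B (16909 against 12076 to 13205), and 1 far below them (96 against 690 to 963). PSMB6, which cleaves after acidic residues, read 9871, 7501 and 9996 against 12454, 1212 and 16641. Arrays A and C exceeded all scrambled arrays and array B lay far under them (log2 -0.51, and 0.67 with 5 arrays, adjusted p = 0.476). PSMB7, which cleaves after basic residues, read 8012, 7079 and 6768 against 7702, 379 and 8354, so that its difference of -1.31 was 0.14 with 5 arrays. After quantile normalization PSMB7 was lower without overlap, with 6 arrays (-1.76) and with 5 (-0.12). PSMB5, which cleaves after hydrophobic residues and is the main target of proteasome inhibitors, read 6068, 4901 and 4330 against 6493, 4974 and 4795. It was the steadiest of the 3, with groups that overlapped and differences of 0.09 and 0.14.

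The alpha ring, which forms the gate of the core, read higher in 2 of 7 genes with 6 arrays (median -0.22) and in 5 of 7 with 5 (median 0.26). With PSMA1 kept on the probe set of the 6 arrays, where its difference was -0.01, the latter were 4 of 7 and 0.08. The 7 genes did not include PSMA6. They included PSMA8, which stood at the 60.5, 61.5 and 49.6 percentile of all genes on the scrambled arrays. PSMA5 read 9462, 8333 and 7002 against 11740, 4455 and 14687, and PSMA7 read 9826, 9932 and 7826 against 13240, 3060 and 15878. In both, arrays A and C lay above all scrambled arrays and array B below them. Their differences were 0.16 and -0.08 with 6 arrays, and 0.68 (adjusted p = 0.461) and 0.66 (adjusted p = 0.453) with 5. PSMA2 read 13272, 12253 and 11173 against 11107, 2857 and 11538, and PSMA3 read 9303, 9035 and 8027 against 10883, 1503 and 6917. With 5 arrays the groups of both overlapped, with differences of -0.11 and -0.02. PSMA3 read above all scrambled arrays on array A and below them on array C. After quantile normalization PSMA2 was lower without overlap, with 6 arrays (-0.77) and with 5 (-0.49). The other, dimmer probe set of PSMA2 read 1990, 1787 and 1506 against 1290, 426 and 882. It lay below all scrambled arrays on each CKS1B shRNA array (log2 -1.14, and -0.71 with 5 arrays).

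Of the immunoproteasome subunits none passed the test. With 6 arrays 3 of 3 read lower (median -0.56), and with 5 arrays 1 of 3 read higher (median -0.03). PSMB8 read 4322, 3996 and 3146 against 4122, 1784 and 3346, with differences of -0.38 and -0.03 with 5 arrays. PSMB9 read 6125, 6036 and 5274 against 5104, 1230 and 4760. It was below every scrambled array on all CKS1B shRNA arrays, with differences of -0.90 (SE 0.59, adjusted p = 0.933) and -0.23 with 5 arrays (adjusted p = 0.698). PSMB10 read 4100, 3343 and 3971 against 4374, 722 and 5305, with differences of -0.56 and 0.34.

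Each immunoproteasome subunit was also set against the constitutive subunit it replaces, as a log2 ratio within each array, and the change of that ratio was tested over 3 pairs. The ratio of PSMB8 to PSMB5 was -0.41 ± 0.11 with the scrambled and -0.88 ± 0.52 with the CKS1B shRNA (SD, n = 3), a change of -0.47. The two-sided exact permutation p was 0.1, which is the lowest possible for groups of 3, and 0.3 adjusted over the 3 pairs. By array this ratio was -0.49, -0.29 and -0.46 with the scrambled and -0.65, -1.47 and -0.52 with the CKS1B shRNA, array B being lowest. After quantile normalization the change was -0.52, with an exact permutation p of 0.3 before adjustment. The ratio of PSMB9 to PSMB6 changed by -0.38 (exact p = 0.5, adjusted 0.5) and that of PSMB10 to PSMB7 by 0.75 (exact p = 0.2, adjusted 0.3). With 5 arrays the changes were -0.17, -0.90 and 0.2, with exact p of 0.2, 0.2 and 0.4, where 0.2 is the lowest possible. A ratio of different probe sets gives no relative amount of the subunits, only a change between arrays.

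**Figure D3:**
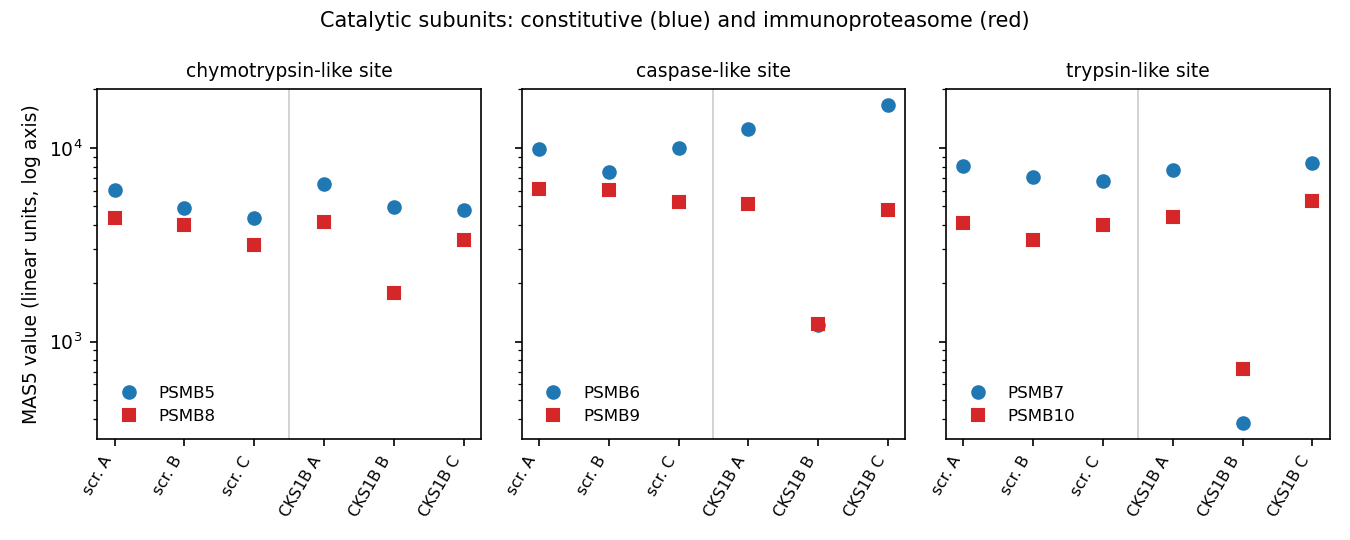
MAS5 value, on a log axis, of the constitutive catalytic subunits and the immunoproteasome subunits that replace them, with 1 point for each scrambled (scr.) or CKS1B shRNA array. PSMB9 lies below all scrambled arrays on every CKS1B shRNA array, and levels of different genes come from different probe sets and are not comparable.

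In the base of the regulatory particle, 5 of 5 ATPases and 3 of 3 other subunits read higher with 5 arrays (medians 0.41 and 0.57), and 0 of 5 and 0 of 3 with 6 (medians -0.36 and -0.21). PSMC3, an ATPase, read 4614, 3256 and 2460 against 5946, 13.4 and 3746, so that 1 array set its difference of -1.94 (SE 1.78), which was 0.50 with 5 arrays. PSMC4 read 3504, 2962 and 2758 against 4606, 1406 and 4274, and PSMC2 read 7400, 7360 and 7534 against 9773, 1182 and 10018. In both, arrays A and C lay above all scrambled arrays, with differences of 0.53 (adjusted p = 0.501) and 0.41 (adjusted p = 0.521) with 5 arrays. PSMD1, a scaffold of the base, read 5458, 3843 and 3418 against 6805, 1359 and 6407 (0.67 with 5 arrays). PSMD2 read 6709, 6639 and 5971 against 8139, 1575 and 7752 (0.30). PSMD4, a receptor for ubiquitin chains, read 10112, 11013 and 11157 against 13387, 3156 and 19025 (0.57). These 3 were higher without overlap on the 5 arrays, while PSMC2 and PSMD2 overlapped after quantile normalization (0.13 and 0.07).

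The lid had the lowest standing on CKS1B shRNA array B, where its median lay at the 56.2 percentile of all genes, against 92.5 to 94.0 on the scrambled arrays. Of its 6 genes 0 read higher with 6 arrays (median -0.61) and 5 with 5 (median 0.20). PSMD8 read 5940, 4896 and 3903 against 5346, 142 and 6881 (log2 -1.43, and 0.32 with 5 arrays). PSMD3 read 4525, 2700 and 1759 against 4550, 664 and 3375. PSMD3 varied among the scrambled arrays more than it differed between the groups (log2 -0.35, and 0.49 with 5 arrays). PSMD11 read 6506, 5160 and 5529 against 8119, 751 and 8235, and was the only lid gene higher without overlap on 5 arrays (log2 0.52, adjusted p = 0.501). PSMD6 read 6173, 5408 and 5822 against 6388, 798 and 4751, with differences of -0.99 and -0.07.

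Assembly factors read level or lower with the CKS1B shRNA in most members, with none past the test. Of the chaperones of the core, PSMG1 to PSMG4, 0 of 4 read higher with 6 arrays (median -0.83) and 0 of 4 with 5 (median -0.07). PSMG1 read 5381, 4901 and 3985 against 4932, 1043 and 3552, and PSMG3 read 2396, 2060 and 2693 against 2156, 251 and 2177. Both overlapped between groups, with differences of -0.17 and -0.13 with 5 arrays. After quantile normalization PSMG1 was lower without overlap, with 6 arrays (-0.83) and with 5 (-0.32). The chaperones of the base had the median deviation nearest to 0 on array B, -0.46, with a range from -1.98 to -0.26. PSMD5 read 1558, 2087 and 1391 against 1517, 407 and 974 (log2 -0.95, and -0.44 with 5 arrays), PSMD9 read 1949, 1799 and 1488 against 2042, 1257 and 2437, and PSMD10 read 2621, 2546 and 2365 against 3237, 2099 and 1919. None of the differences between classes was tested.

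The activators, which open the core without the regulatory particle, split among themselves. PSME1, part of the interferon-inducible activator, read 6443, 6077 and 5082 against 6896, 1038 and 10070, and was higher without overlap on 5 arrays (log2 0.51, adjusted p = 0.518). PSME3, of the nuclear activator, read 6078, 5198 and 4085 against 6878, 2665 and 2516. PSMF1, an inhibitor of the core, read 3713, 3058 and 2401 against 3855, 630 and 1390. In PSME3 and PSMF1 array A lay above and array C below all scrambled arrays, and their differences with 5 arrays were -0.28 and -0.38. The probe sets of PSMF1 above the filter did not share a sign, with differences from -0.41 to 0.21 with 5 arrays.

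Probe sets of the same gene gave different readings on CKS1B shRNA array B. In 18 genes at least 2 probe sets lay above the filter, and their deviations from the scrambled mean spanned a median of 1.685 log2 units there, where array A had 0.335 and array C 0.61. For PSMC2 they ran from -2.64 to 3.24 on array B and for PSMB4 from -2.84 to 1.24. For PSMA2 they spanned only 0.09 on array B, but 0.89 on array C. The probe sets of a gene had the same sign in 8 of 18 genes with 6 arrays and in 13 of 18 with 5.

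**Figure D4:**
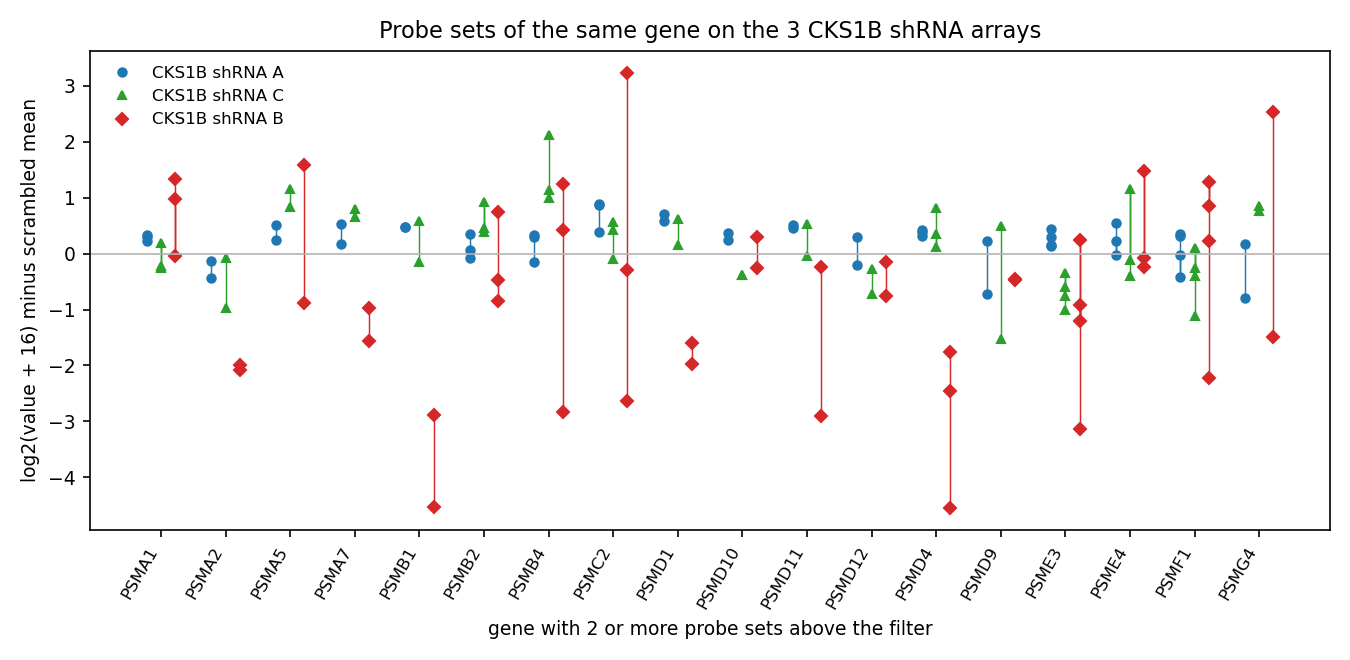
Log2 deviation from the scrambled mean of each probe set above the filter, for the 18 proteasome genes with several, on the CKS1B shRNA arrays. The spread within a gene is wider on array B (median 1.685) than on arrays A (0.335) and C (0.61).

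Genes that work with the proteasome were read from lists chosen with earlier results of these data known, and 0 of their members passed an adjusted p of 0.05 with 6 or 5 arrays. Of 11 partners without a PSM symbol, 0 read higher with 6 arrays (median -0.78) and 6 with 5 (median 0.05). UBE3C, a ubiquitin ligase bound to the proteasome, read 2352, 2385 and 2029 against 1488, 584 and 1275, lower on every CKS1B shRNA array (log2 -1.11, limma adjusted p = 0.933, and -0.70 with 5 arrays, adjusted p = 0.453). With the mean of its probe sets the difference with 6 arrays was -0.29. UCHL5, a deubiquitinase of the regulatory particle, read 7566, 6751 and 5365 against 6401, 1026 and 4015 and overlapped (log2 -1.12, and -0.36 with 5 arrays). Its difference with 6 arrays was 0.01 with the mean of its probe sets and 1.09 on the brightest probe set without a suffix for shared sequence.

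Among 10 tested genes that control proteasome transcription, 4 read higher with 6 arrays (median -0.55) and 6 with 5 (median 0.16). MAFG, a small MAF partner of NFE2L1, read 444, 613 and 1108 against 1287, 1211 and 1640. It was above all scrambled arrays on each CKS1B shRNA array, array B included (log2 1.01, adjusted p = 0.933, and 1.09 with 5 arrays, adjusted p = 0.471). NGLY1, which removes sugars from NFE2L1 and so allows its activation, read 3633, 3909 and 3210 against 3153, 1047 and 1818 (log2 -0.97, and -0.57 with 5 arrays). With the probe sets of each averaged, the differences with 6 arrays were 1.61 for MAFG and -0.25 for NGLY1. NFE2L1 itself, named after its values were seen, read 2876, 2250 and 1846 against 2825, 3732 and 3805, and the groups overlapped (log2 0.58, and 0.52 with 5 arrays). The 13 proteasome genes with the motif had a median of -0.35 with 6 arrays and 0.33 with 5 (8 of 13 higher). PSMD12, whose difference with 5 arrays rounded to 0.0, was left out of these 8, but was among the lid genes counted as higher above. The 23 without it had -0.50 and 0.14 (15 of 23 higher, PSMA1 among them on its 5-array probe set), a difference that was not tested.

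Of 7 tested genes for ubiquitin and its carriers, 3 read higher with 6 arrays (median -0.06) and 6 with 5 (median 0.17). UBQLN2, which carries tagged proteins to the proteasome, read 1750, 1675 and 1526 against 1848, 3802 and 1868 and did not overlap (log2 0.51, and 0.17 with 5 arrays). UBA1, the main ubiquitin-activating enzyme, read 9340, 8648 and 8774 against 9996, 1328 and 7729 and overlapped (log2 -0.92 and -0.02). Of 8 tested genes of antigen processing, 4 read higher with 6 arrays (median -0.14) and 5 with 5 (median 0.20). TAP1, which with TAP2 moves peptides into the endoplasmic reticulum, read 2792, 2650 and 3517 against 3713, 5259 and 6821. It was higher on every CKS1B shRNA array (log2 0.78, adjusted p = 0.933, and 0.76 with 5 arrays, adjusted p = 0.486). TAP2 read 2966, 2614 and 2138 against 2191, 860 and 1833, and the groups overlapped (log2 -0.75, and -0.34 with 5 arrays). After quantile normalization, with 6 and with 5 arrays, the groups of TAP1 overlapped (0.98 and 0.63) and TAP2 was lower without overlap (-0.74 and -0.38).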

How the data were processed

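The deposited table gives 1 linear intensity value per probe set and array for 54675 probe sets. The submitters' processing notes name MAS5 as the authors' tool. Its version and settings were not found in the labels. After trimming 2% from each end, the mean was 500 on every array, which leaves the width of the distribution free. Leaving out 62 control probe sets, 41091 of 54613 carried 1 gene symbol in the platform annotation, 1801 several and 11721 none here. The values were log2-transformed after adding 16, probe sets with a mean log2 under the median (7.34, or about 146 units) were dropped, and each gene kept its brightest probe set. With 5 arrays 12612 genes were tested, and PSMA1 was then read through another probe set. Groups came from the labels. Comparisons used limma 3.58.1 (R 4.3.3; linear model, moderated with a trend, no covariates) and the Benjamini-Hochberg adjustment over all genes tested at 0.05. Exact tests of the catalytic pairs used scipy 1.17.1 in Python 3.11.15, and plots used matplotlib 3.10.9. The fit was tested on simulated data with the same spread on every array, which do not cover an array such as CKS1B shRNA array B. The number of arrays limits the precision.

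The members and lists were chosen with earlier results of these data known. Named were 29 members and 8 genes of the lists: the catalytic subunits, PSMB4 and PSMD4 as neighbours of CKS1B, members without overlap over 6 arrays, and in each class the 2 of smallest p with 6 and with 5 arrays (in each list the 2 of smallest p). PSMA1, PSMA4, PSMA8, PSMB1, PSMB3, PSMD12, PSMG2 and NFE2L1 were named beside these, after their values or motifs were seen. Alternatives covered the pseudocount (1 and 64), the filter, centring, quantile normalization, array weights, the choice of probe set, the letter as a block and leaving out arrays.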

Additional observations from a re-analysis of the deposited data

How the results depend on the processing

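No proteasome gene passed the adjusted threshold under any alternative run. The median log2 difference over the 42 genes, -0.49 as reported, was -0.72 with centring on the median, -0.35 with probe sets averaged per gene and 0.09 with array weights, which gave CKS1B shRNA array B a weight of 0.0861. It was 0.24 without both arrays of letter B and, without CKS1B shRNA array B, 0.00 after quantile normalization. Leaving out each array in turn gave -0.89 to 0.22. Without CKS1B shRNA array B and with the probe sets of the 6 arrays kept, chosen after seeing the data, the median was 0.16 and 18 genes did not overlap. The number of these genes whose groups did not overlap, 2 as reported, was 0 with centring, 6 with quantile normalization, 5 with the mean of probe sets, 20 without both arrays of letter B, 15 with quantile normalization and no array B, and 2 to 19 on leaving out each array. Among all genes, 0 passed as reported, 4 with array weights, 1 without both arrays of letter B, 2 with quantile normalization and no array B, and 0 to 6 on leaving out each array. With 0 called, 373 of all genes had an unadjusted p under 0.05 in limma. For PSMB9 and PSMB6 the change of the ratio was -0.90 to 0.01 on leaving out each array, and for PSMB10 and PSMB7 it was -0.22 with the mean of probe sets. The cause of these moves was not tested. Of 729 values of the 37 named genes under alternatives, 97 had the other sign.

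Same-letter deviations from the group means correlated at 0.347, -0.16 and -0.153 for A, B and C, and different-letter ones at -0.377 to 0.329. Whether the letters pair the arrays cannot be told from these values, since the group mean includes CKS1B shRNA array B. With the letter as a replicate block the median was -0.49 and 2 genes did not overlap. With the block and no CKS1B shRNA array B, chosen after seeing the data, the median was 0.24, 19 genes did not overlap, and 100 of all genes passed. The number of arrays limits all values, and the 3' to 5' control ratio of CKS1B shRNA array B those that use it. Leaving out array B does not remove every difference in that ratio, since CKS1B shRNA array C, at 2.93 for actin, stays in. Its part in the results with 5 arrays was not tested.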
